A study of Bos taurus with 46 samples.

Results

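The Toll-like receptors TLR2 to TLR10 were followed in circulating leukocytes of 23 pregnant heifers on D55 and D105 of gestation. They were chosen by symbol, as TLR1 to TLR10, and 9 of these 10 had a row among the 30675 genes of the NCBI RefSeq count table. TLR1 had none and was not analysed here. Every heifer gave 1 blood sample on each day, so there were 46 libraries in 6 groups. The 8 AI heifers were controls that had conceived by artificial insemination. The other 15 had received in vitro produced embryos, and they were split by the weight of the fetus at collection. The 9 IVP-LOS heifers (ARTLOS in the labels) carried a fetus with large offspring syndrome (LOS), a fetal overgrowth disorder of assisted reproduction in ruminants, and the 6 IVP-Normal heifers (ARTnormal) carried a fetus of normal weight. By the study's supplement, heifers 557 and 604 of IVP-LOS and 628 and 688 of IVP-Normal carried twins and the others a single fetus. All recipients were young adult Angus crossbred heifers. The embryos of both IVP groups came from Bos taurus taurus oocytes and a Brahman (Bos taurus indicus) sire and were cultured with estrus cow serum. The leukocytes were the buffy coat of tail blood after lysis of red cells, without any sorting by cell type, and the study took the samples of the 2 days in different seasons.

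Toll-like receptors are membrane proteins of innate immune cells that bind molecules shared by many microbes. A first class sits at the cell surface and reads bacterial products: TLR4 binds lipopolysaccharide together with LY96 (MD-2) and CD14, TLR5 binds flagellin, and TLR2 binds bacterial lipopeptides as a dimer with TLR6 or TLR1. The other class sits in endosomes and reads nucleic acids: TLR3 binds double-stranded RNA, TLR7 and TLR8 single-stranded RNA, and TLR9 unmethylated CpG DNA. TLR10 is a surface receptor found mainly in B cells, and its ligand is less settled. All of these except TLR3 signal through the adaptor MYD88, TLR3 and TLR4 use the adaptor TICAM1 (TRIF), and both routes lead to NF-kappaB, interferon regulatory factors and inflammatory cytokines. Neutrophils and monocytes are the usual carriers of TLR2, TLR4, TLR5 and TLR8 in blood, and B cells those of TLR9 and TLR10.

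The shallowest library had 18692653 reads on genes and the deepest 24502012 (median 22934799.5). Values below are CPM, the reads of a gene for every 1000000 reads of its library, scaled by the trimmed mean of M-values. CPM was not divided by transcript length, so levels are compared between samples of 1 gene and never between genes. The RefSeq annotation of the later assembly ARS-UCD2.0, used here for names only, places TLR6 and TLR10 on chromosome 6 where they overlap each other, TLR2 on chromosome 17 across RNF175, and TLR3 on chromosome 27 across LOC132344049. Reads of these 4 receptors are uncertain to the extent that they were shared with an overlapping gene, and TLR6 and TLR10 are also close paralogs. No overlapping gene was listed for TLR4 (chromosome 8), TLR5 (16), TLR7 and TLR8 (both X) or TLR9 (22). The labels name 2 library sets. All D55 libraries and the D105 libraries of IVP-Normal are of the set New, and the D105 libraries of AI and IVP-LOS are of the set BACKUP. Day and set therefore cannot be told apart in the 17 AI and IVP-LOS heifers, and a day comparison within 1 set exists only in the 6 IVP-Normal heifers. Markers of T cells, B cells, natural killer cells, monocytes, neutrophils and platelets were detected, as a buffy coat would give. Of 6 erythroid genes, HBA, HBA1 and SLC4A1 were at 0 reads in 44, 43 and 38 of the 46 libraries, whereas HBB (median 71.4 CPM), ALAS2 (8.12 CPM) and AHSP (0.930 CPM) had reads in every library.

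**Figure D1:**
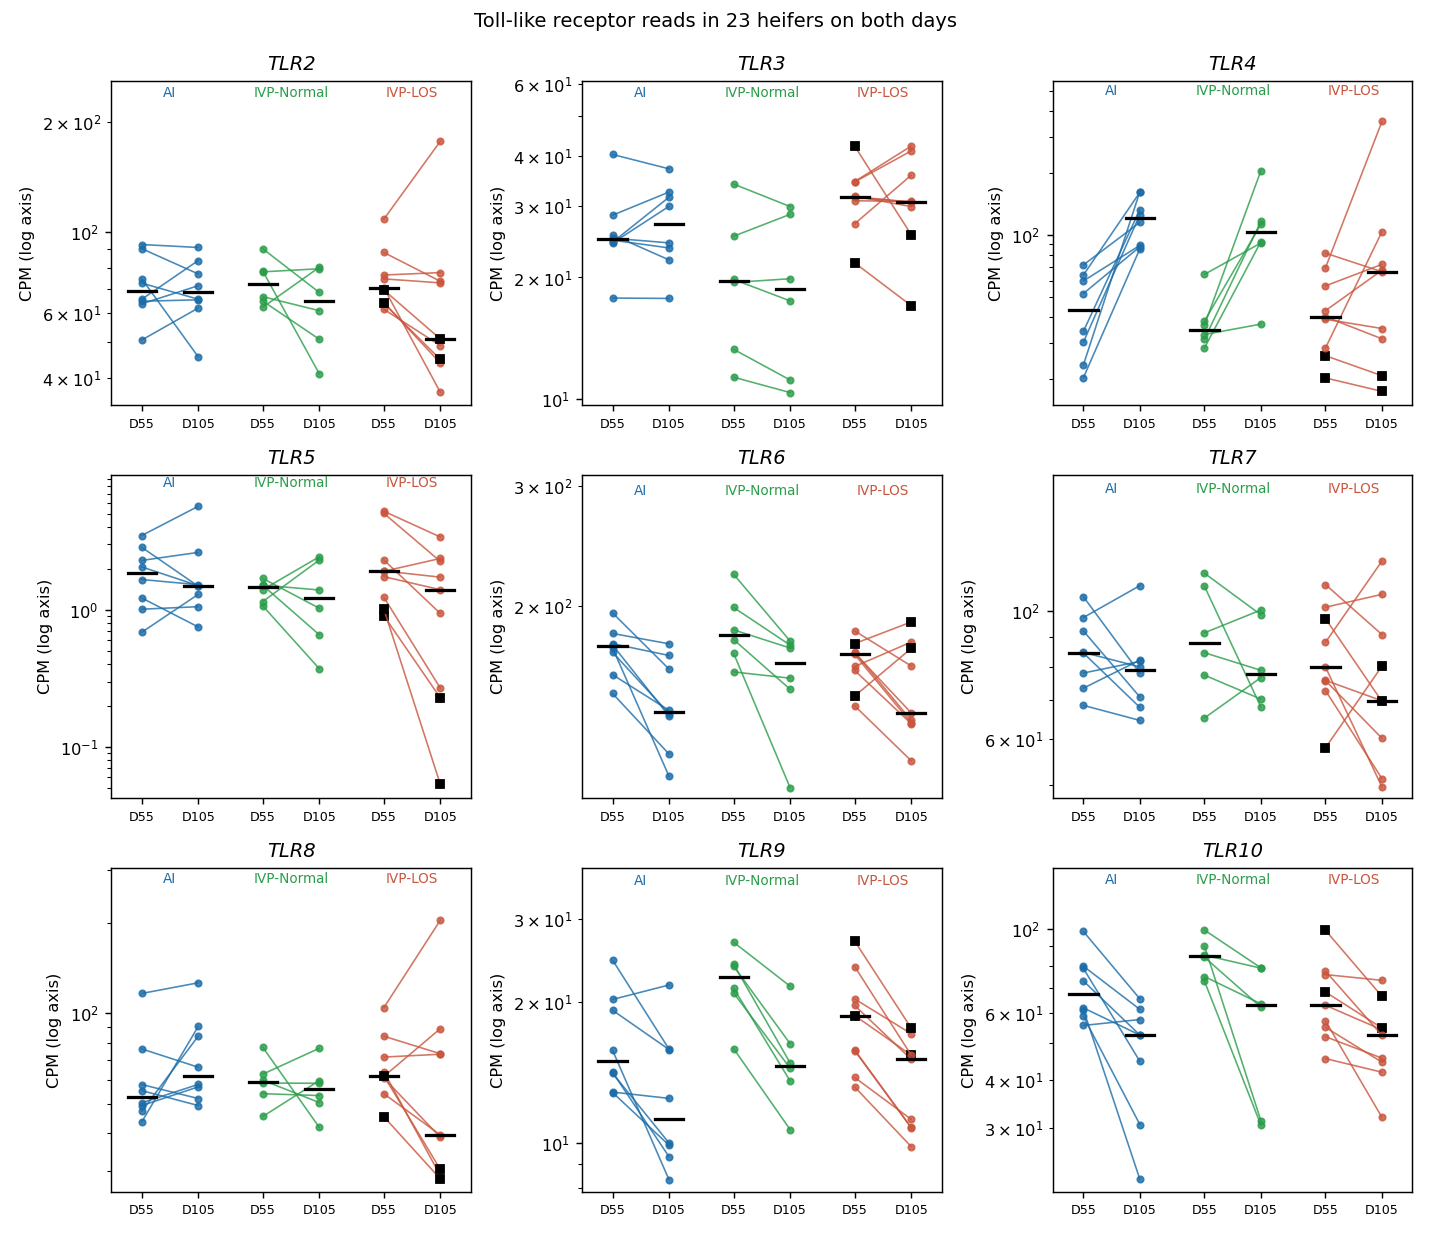
CPM of 9 Toll-like receptors (log axis, a scale of its own per panel) on D55 and D105. Each line joins the 2 libraries of 1 heifer, black bars are group medians and black squares are heifers 604 and 664. TLR4 climbs in 8 of 8 AI and 6 of 6 IVP-Normal heifers, while most lines of TLR6, TLR9 and TLR10 slope down.

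The first question was whether receptor levels changed between D55 and D105 within a treatment group. TLR4 was the receptor called in AI and IVP-Normal. In AI heifers it ran from 20.3 to 71.6 CPM on D55 (median 43.1) and from 85.7 to 162 CPM on D105 (median 120). Every D105 library of that group was above every D55 library, and each of the 8 heifers was higher on D105, by 1.49-fold in heifer 517 up to 6.92-fold in heifer 648. The share of all genes whose days separate in this way is not given here, so the separation is not shown to be particular to TLR4. TLR4 rose in this group by a log2 fold change of 1.44 ± 0.26 (SE, n = 8 heifers; edgeR quasi-likelihood test, adjusted p = 0.0013, Benjamini-Hochberg over all genes tested). It was the 1 receptor called of the 9, in a comparison where 9.95% of all genes were called and 7.21% were called higher.

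TLR4 also rose in IVP-Normal heifers, where both days are of 1 library set. The D55 range was 28.4 to 64.4 CPM (median 34.8) and the D105 range 37.0 to 205 CPM (median 103). All 6 heifers were higher on D105, from 1.12-fold in heifer 519 to 5.61-fold in heifer 628, and 5 of the 6 D105 values lay above the whole D55 range. The log2 fold change was 1.497 ± 0.318 (edgeR quasi-likelihood test, adjusted p = 0.0217), and TLR4 was again the 1 receptor called, against 2.45% of all genes called and 2.27% called higher. With 6 heifers the call rested on single animals: the adjusted p was 0.0871 without heifer 560, 0.0923 without 628, 0.107 without 633 and 0.121 without 688, while the log2 fold change stayed between 1.23 and 1.76 whichever heifer was left out.

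IVP-LOS heifers did not move together. TLR4 ran from 20.3 to 81.7 CPM on D55 (median 40.2) and from 17.5 to 355 CPM on D105 (median 66.3). It was higher on D105 in 4 of the 9 heifers and lower in 5, with a median ratio of 0.902. Heifer 637 went from 69.4 to 355 CPM, heifer 656 from 28.4 to 104 CPM, heifer 512 from 43.0 to 67.5 CPM and heifer 616 from 56.7 to 72.1 CPM. The other 5 heifers ended between 0.782 and 0.902 of their D55 level. The log2 fold change over the group was 0.94 ± 0.49 and was not called (edgeR quasi-likelihood test, adjusted p = 0.450). The size rested on heifer 637, without which it was 0.32 (adjusted p = 0.768), and with heifer as a block it was 0.42 (adjusted p = 0.457). None of the 9 receptors was called between days in IVP-LOS by edgeR's quasi-likelihood test, where 0.251% of all genes were called. The likelihood ratio tests of edgeR and DESeq2 called 0 of the 9 as well, and 2 of the 9 had an unadjusted p under 0.05.

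Neutrophil markers moved beside TLR4 in AI and IVP-Normal. Of 8 neutrophil genes listed, 7 were in the table (CSF3R was not), and all 7 were called higher on D105 in AI, 5 in IVP-Normal and 0 in IVP-LOS. In AI the summed neutrophil markers ran from 665 to 1565 CPM on D55 and from 1761 to 4923 CPM on D105. S100A12 and S100A9 weigh most in these sums (medians of 726 and 189 CPM over the 46 libraries), and CXCR1 and MMP9 little (11.7 and 1.13 CPM). The IVP-Normal sums were 426 to 1109 CPM and 1071 to 4918 CPM. IVP-LOS sums were 504 to 1560 CPM on D55 and 344 to 12538 CPM on D105, with the highest in heifer 637 and the lowest in heifer 604. CXCR1, an interleukin-8 receptor of neutrophils named here after its values were seen, rose in AI by a log2 fold change of 5.26 and in IVP-Normal by 4.03. In IVP-LOS the markers split. With heifer as a block CXCR1 (3.68), MMP9 (3.19) and CXCR2 (2.52) had larger log2 fold changes there than TLR4 (0.42). None of these was called (edgeR quasi-likelihood test, adjusted p = 0.0625, 0.118, 0.0522 and 0.457). S100A8, S100A9, S100A12 and MMP25 changed there by 0.06, 0.0011, 0.11 and 0.22. Of 6 monocyte markers, CD14 was called higher in AI and none in the other groups without the heifer block. With the block CD163 (log2 fold change 1.04) and VCAN (0.83) were also called higher in AI, where 17.1% of all genes were called. Of 6 dendritic cell markers, IL3RA was called higher in AI and IVP-Normal (log2 fold change 1.71 in both) and XCR1 in AI (1.23). The eosinophil gene ALOX15 was called higher in all 3 groups, by 2.99 in AI, 4.42 in IVP-Normal and 4.43 in IVP-LOS, and the sum of the 4 measured eosinophil markers had D55 and D105 medians of 33.5 and 64.4, 36.4 and 72.1, and 40.1 and 74.1 CPM. No T cell, natural killer cell, B cell, platelet or erythroid marker was called between days without the heifer block. With the block, the erythroid gene ALAS2 (log2 fold change -1.24) and the natural killer cell genes KLRD1 (-0.48) and NKG7 (-0.36) were called lower in AI. In IVP-Normal ALAS2 was called lower (-1.01) and the platelet gene ITGA2B higher (0.37). B cell markers with the block are given below. The part of cell composition in the TLR4 change was not tested, and in bulk samples more cells of a type and more RNA per cell cannot be told apart.

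**Figure D2:**
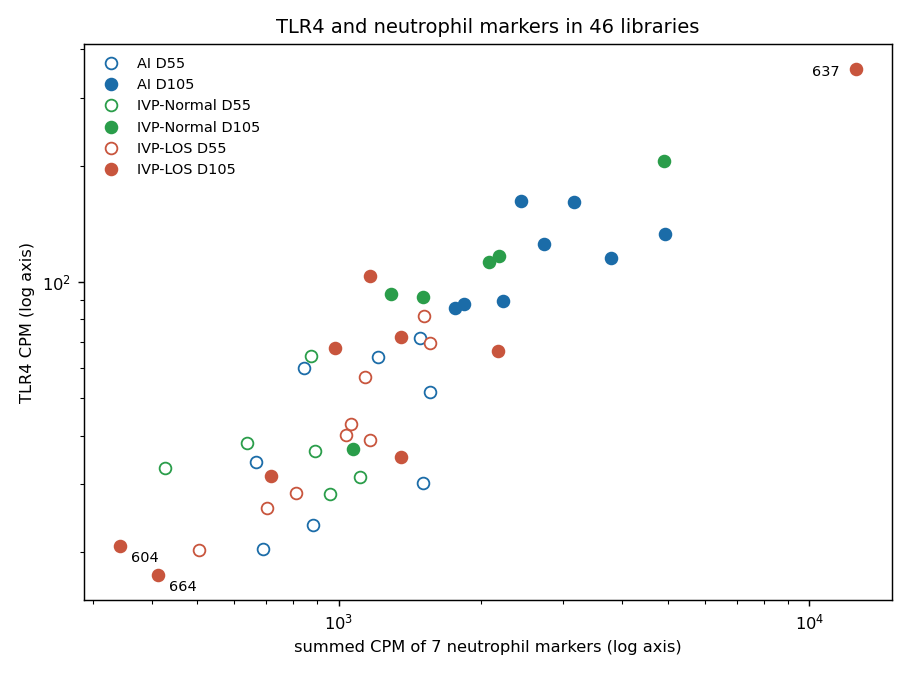
TLR4 CPM against the summed CPM of 7 neutrophil markers (both log axes) in 46 libraries, open circles on D55 and filled circles on D105. The points run from heifers 604 and 664 on D105 (344 and 412 summed CPM) to heifer 637 on D105 (12538 summed CPM, 355 CPM of TLR4).

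TLR10, TLR9 and TLR6 were lower on D105 in nearly every heifer. The share of all genes lower in as many heifers is not given here. In a fit over all 23 heifers with heifer as a block, 2817 of 16487 genes were called lower on D105. TLR10 was lower in 22 of 23 heifers, with heifer 609 of AI the exception at 1.04 times its D55 level. The largest falls left 0.347 of the D55 level in heifer 628, 0.358 in heifer 546 and 0.419 in heifer 633. Its AI values were 55.7 to 98.4 CPM on D55 (median 67.5) and 21.98 to 65.5 CPM on D105 (median 52.6). In IVP-Normal the medians were 84.8 and 62.9 CPM, and in IVP-LOS 63.0 and 52.5 CPM. The ranges of the 2 days overlapped in all 3 groups. Log2 fold changes were -0.54 ± 0.19 in AI, -0.56 ± 0.23 in IVP-Normal and -0.34 ± 0.15 in IVP-LOS, and none was called by the quasi-likelihood test (adjusted p = 0.0876, 0.298 and 0.368).

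TLR9, the CpG DNA receptor, was also lower in 22 of 23 heifers, with heifer 533 of AI at 1.07 times its D55 level. AI values were 12.8 to 24.5 CPM on D55 (median 14.9) and 8.34 to 21.7 CPM on D105 (median 11.2). IVP-Normal values were 15.9 to 26.8 CPM (median 22.6) and 10.7 to 21.6 CPM (median 14.6). IVP-LOS values were 13.2 to 26.9 CPM (median 18.7) and 9.82 to 17.6 CPM (median 15.1). Ranges overlapped in each group, but in IVP-LOS all 9 heifers ended between 0.647 and 0.843 of their D55 level and in IVP-Normal all 6 between 0.616 and 0.806. The log2 fold changes of TLR9 were -0.36 ± 0.20, -0.54 ± 0.17 and -0.44 ± 0.15 in AI, IVP-Normal and IVP-LOS, without a call (adjusted p = 0.304, 0.133 and 0.224).

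TLR6, the partner of TLR2, was lower on D105 in 20 of 23 heifers, with 3 IVP-LOS heifers higher. AI values were 149 to 196 CPM on D55 (median 175) and 113 to 176 CPM on D105 (median 140), and 5 of the 8 D105 libraries lay below the whole D55 range. The log2 fold changes were -0.25 ± 0.09 in AI, -0.25 ± 0.12 in IVP-Normal and -0.11 ± 0.09 in IVP-LOS (adjusted p = 0.0888, 0.397 and 0.647).

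Both libraries of a heifer came from the same animal, and with heifer as a block in the fit several of these differences were called. In AI, TLR10 fell by 0.60 ± 0.14 on the log2 scale (adjusted p = 0.0130), TLR6 fell by 0.26 ± 0.07 (adjusted p = 0.0202) and TLR9 fell by 0.39 ± 0.11 (adjusted p = 0.0287), next to the rise of TLR4 (log2 fold change 1.52 ± 0.24, adjusted p = 0.0015). These were 4 of 9 receptors, against 17.1% of all genes called in that blocked fit. In IVP-Normal the block gave TLR9 (log2 fold change -0.56 ± 0.09, adjusted p = 0.0057) and TLR4 (adjusted p = 0.0117), 2 of 9 against 5.5% of all genes. In IVP-LOS it gave TLR9 alone (log2 fold change -0.43 ± 0.07, adjusted p = 0.0130), 1 of 9 against 1.07% of all genes. A fit over all 23 heifers with heifer as a block called 4 of 9, in a comparison where 31.7% of all genes were called. TLR9 fell by 0.46 ± 0.05 (adjusted p = 8.87e-08), TLR10 fell by 0.51 ± 0.09 (adjusted p = 5.4e-05), TLR6 fell by 0.21 ± 0.04 (adjusted p = 0.000605) and TLR4 rose by 1.07 ± 0.20 (adjusted p = 0.000233) on the log2 scale. In 17 of these 23 heifers the library set changed together with the day.

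B cell markers were beside the falls of TLR9 and TLR10. All 8 B cell genes listed were in the table, and 0 were called between days in any group by the quasi-likelihood test without the block, while 3 were called lower in AI and 6 in the fit over all 23 heifers with it. Of all genes, 1051 of 15248 were called lower in that AI fit and 2817 of 16487 in the fit over all 23. The summed B cell markers had medians of 3119 CPM on D55 and 2529 CPM on D105 in AI, 4043 and 3289 CPM in IVP-Normal, and 3189 and 3171 CPM in IVP-LOS. Median log2 fold changes of the 8 genes were -0.30, -0.25 and -0.04 in AI, IVP-Normal and IVP-LOS. The part of B cell number in the lower TLR9 and TLR10 was not tested.

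**Figure D3:**
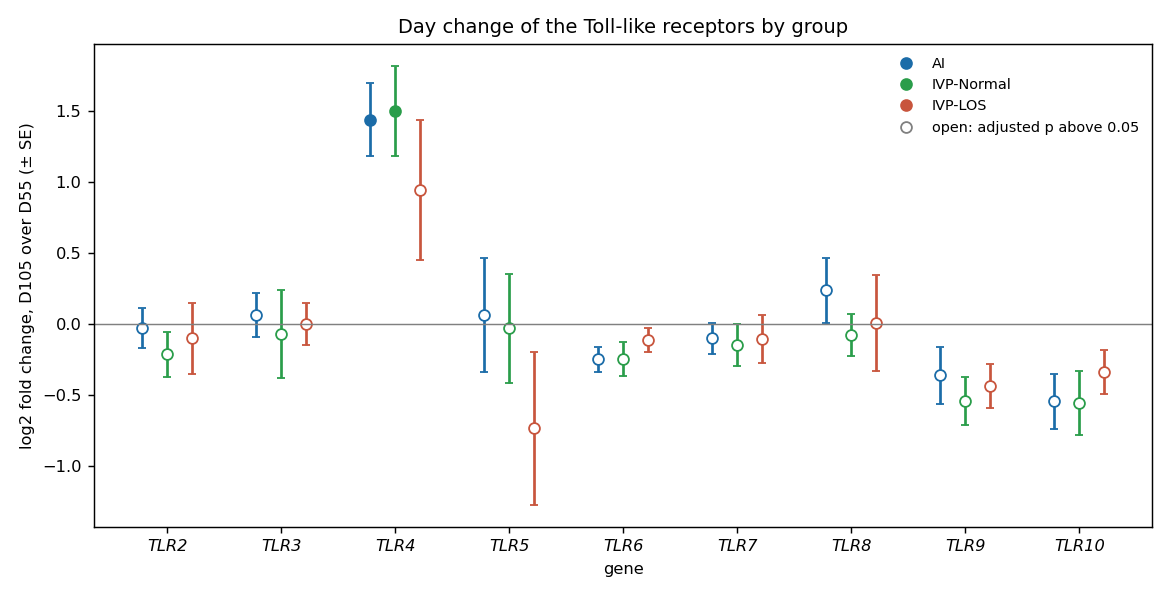
Log2 fold change of D105 over D55 with its SE for 9 Toll-like receptors in AI (n = 8), IVP-Normal (n = 6) and IVP-LOS (n = 9) by edgeR's quasi-likelihood test without a block. Filled points, adjusted p at most 0.05, are TLR4 in AI and IVP-Normal, and the TLR9 and TLR10 points are below 0 in all 3 groups.

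The remaining 5 receptors were called between days in no group, with or without the heifer block. TLR2, the lipopeptide receptor, had D55 medians of 69.1, 72.3 and 70.5 CPM in AI, IVP-Normal and IVP-LOS and D105 medians of 68.5, 64.7 and 51.0 CPM. It was lower on D105 in 15 of 23 heifers, 7 of them among the 9 IVP-LOS heifers, whereas heifer 637 of that group rose from 109 to 178 CPM. TLR5, the flagellin receptor, had few reads, with at most 127 reads in any library, so its counting error is wide. In AI it was higher in 4 heifers and lower in 4, and in IVP-LOS it was lower in 8 of 9, with group ranges of 0.906 to 5.24 CPM on D55 and 0.0533 to 3.40 CPM on D105 (log2 fold change -0.73 ± 0.54, adjusted p = 0.626).

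The RNA receptors of the endosome had small differences between days. TLR3 had the smallest log2 fold changes, 0.06 ± 0.16 in AI, -0.07 ± 0.31 in IVP-Normal and -0.0022 ± 0.15 in IVP-LOS. TLR7 was lower in 15 of 23 heifers, with log2 fold changes between -0.15 and -0.10. TLR8 was higher in 5 of 8 AI heifers (log2 fold change 0.24 ± 0.23, adjusted p = 0.590) and lower in 6 of 9 IVP-LOS heifers, where heifer 637 rose from 104 to 204 CPM. In IVP-LOS its log2 fold change was 0.01 ± 0.34, and it was -0.31 without that heifer.

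The next question was whether the day change differed between groups. No receptor was called in any of the 3 contrasts of day changes by edgeR's quasi-likelihood test, in fits where 0.0% of 16487 genes were called. These contrasts share libraries with each other and with the day comparisons above. At an unadjusted p under 0.05 there were 0 of 9 receptors in each of the 3, and both likelihood ratio tests called 0. With the heifer block none was called either, and 2 of 9 were under that p for IVP-LOS minus AI (TLR4 and TLR5), 1 for IVP-LOS minus IVP-Normal (TLR4) and 0 for IVP-Normal minus AI. For TLR4 the day change of IVP-LOS minus that of AI was -0.50 ± 0.55 (adjusted p = 0.954), and with the heifer block it was -1.11 ± 0.42 (adjusted p = 0.464). IVP-LOS minus IVP-Normal gave -0.57 ± 0.60 (adjusted p = 1.0), and -0.98 ± 0.45 with the block. IVP-Normal minus AI gave 0.07 ± 0.62. The TLR4 rise seen in AI and IVP-Normal was therefore not shown to differ from the day change of IVP-LOS.

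Treatment groups were then compared on each day. On D55 no receptor was called in IVP-Normal against AI, in IVP-LOS against AI or in IVP-LOS against IVP-Normal, in fits where 0.0% of all genes were called. On D105 none was called in the same 3 contrasts, again with 0.0% of all genes. Contrasts of 1 day share libraries. At an unadjusted p under 0.05 the quasi-likelihood test had 1, 0 and 2 receptors on D55 and 0, 0 and 1 on D105, in that order, and the likelihood ratio tests of edgeR and DESeq2 called 0 in each of the 6. On D105 both comparisons with IVP-Normal also compare library sets, whereas AI and IVP-LOS are both of the set BACKUP.

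TLR3, the double-stranded RNA receptor, had the lowest unadjusted p of the group comparisons. Its D55 values were 17.8 to 40.3 CPM in AI (median 24.9), 11.3 to 34.0 CPM in IVP-Normal (median 19.6) and 21.7 to 42.2 CPM in IVP-LOS (median 31.7). On D105 they were 17.8 to 37.1 CPM (median 27.2), 10.4 to 29.9 CPM (median 18.7) and 17.0 to 42.2 CPM (median 30.7). IVP-Normal had the lowest median on both days and IVP-LOS the highest, with overlapping ranges. IVP-LOS over IVP-Normal was a log2 fold change of 0.64 ± 0.21 on D55 (adjusted p = 0.839) and 0.70 ± 0.24 on D105 (adjusted p = 0.999). TLR9 in IVP-Normal over AI on D55 was 0.40 ± 0.16 (adjusted p = 0.493), and TLR10 in IVP-LOS over IVP-Normal on D55 was -0.35 ± 0.14 (adjusted p = 0.839).

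Each of heifers 604 and 664 carried 1 of the 2 largest IVP-LOS fetuses, that of heifer 604 being 1 of twins, and these heifers were set against the other 21 in a fit of their own. The study focused on this pair for fetal size and also because its leukocyte libraries clustered apart in these same data. The pair was thus picked partly on the expression tested here, and calls in it are not independent of that choice. On D105 both heifers had little TLR4, with 20.8 CPM in heifer 604 and 17.5 CPM in heifer 664. The other 21 ranged from 31.4 to 355 CPM with a median of 93.0 CPM, so the pair lay below all of them. The share of all genes with both heifers below the other 21 is not given here. TLR4 was lower in the pair by a log2 fold change of -2.54 ± 0.70 (edgeR quasi-likelihood test, adjusted p = 0.0158). This was 1 of 2 receptors called of the 9, in a comparison where 21.1% of all genes were called and 9.48% were called lower.

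TLR5 was the other one. Heifer 604 had 4 reads (0.228 CPM) and heifer 664 had 1 read (0.0533 CPM) on D105, against 0.268 to 5.70 CPM (6 to 127 reads) in the other 21. The pair again lay below the range of the others, the lowest of which was heifer 557, and again no share over all genes is given. TLR5 had a log2 fold change of -3.59 ± 1.02 (adjusted p = 0.0178). Pooled over libraries, 5 reads in the pair against 818 in the others gave a ratio of 0.0762 with an exact 95% interval of 0.0247 to 0.179, which covers counting error only.

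TLR8 had 28.2 CPM in heifer 604 and 30.3 CPM in heifer 664, beside 28.9 to 204 CPM in the other 21 (median 58.6). Heifer 604 was the lowest of all 23 and heifer 664 the third, with a log2 fold change of -1.26 ± 0.50 that was not called (adjusted p = 0.0725), although it was without heifer 637 (-1.11, adjusted p = 0.0393). For the other 6 receptors the log2 fold changes lay between -0.55 (TLR2) and 0.30 (TLR6), and none was called. TLR6 had 174 and 190 CPM in the pair, the latter above the 109 to 178 CPM of the others. TLR9 had 15.4 and 17.6 CPM and TLR10 had 54.9 and 66.5 CPM, all inside the ranges of the others.

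Both calls were lost when either heifer of the pair was left out, while the log2 fold changes stayed between -2.66 and -2.43 for TLR4 and between -4.88 and -2.91 for TLR5. With heifer 604 left out the adjusted p was 0.113 for TLR4 and 0.0855 for TLR5, and with heifer 664 left out it was 0.151 and 0.192, where the lone heifer is assumed to vary like the others. Among the 17 BACKUP libraries alone both stayed called (adjusted p = 0.0167 for TLR4 and 0.0132 for TLR5).

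On D55 no receptor was called in the pair. Both heifers were toward the low end for TLR4 and TLR5, the 2 receptors called on D105. TLR4 had 26.01 CPM in heifer 604 and 20.30 CPM in heifer 664, the latter just under the 20.35 to 81.7 CPM of the other 21 (median 39.1), and a log2 fold change of -0.96 ± 0.42 (edgeR quasi-likelihood test, adjusted p = 0.947). TLR5 had 0.906 and 1.01 CPM, both inside the 0.686 to 5.24 CPM of the others, and a log2 fold change of -1.09 ± 0.59 (adjusted p = 0.947). Pooled over libraries, 46 TLR5 reads in the pair against 1005 in the others gave a ratio of 0.474 with an exact 95% interval of 0.345 to 0.637, again for counting error only. None of the 9 was called by edgeR's quasi-likelihood test or either likelihood ratio test, in a comparison where 0.0179% of all genes were called. At an unadjusted p of 0.05 by the quasi-likelihood test there was 1 receptor, TLR4 (0.0324). Single heifers of the pair also lay outside the other 21 for other receptors on D55. Heifer 604 was below them for TLR7 (57.9 CPM, against 65.2 to 116 CPM) and above them for TLR3 (42.2 CPM, against 11.3 to 40.3 CPM). Heifer 664 was just above them for TLR9 (26.93 CPM, against 12.8 to 26.78 CPM).

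Markers of other features differed in the pair on D105 as well. The counts called below stand beside 21.1% of all genes called in this comparison, 1954 of 16841 higher and 1596 lower. The summed neutrophil markers were 344 and 412 CPM in heifers 604 and 664, beside 719 to 12538 CPM in the other 21, and 6 of 7 measured neutrophil genes were called lower. The 6 monocyte markers summed to 122 and 95.7 CPM, beside 230 to 2106 CPM, and 5 of 6 were called lower. B cell markers summed to 4211 and 5380 CPM, beside 1391 to 4832 CPM, with 3 of 8 called higher. Platelet markers summed to 5786 and 776 CPM, beside 253 to 1511 CPM, and 4 of 5 measured were called higher (PF4, GP9, TUBB1 and PPBP, by log2 fold changes of 1.42 to 2.59). The erythroid genes summed to 591 and 136 CPM, beside 11.2 to 153 CPM, with HBB called higher. Dendritic cell markers summed to 299 and 342 CPM, beside 141 to 278 CPM, with XCR1, FLT3 and FCER1A called lower and TCF4 higher. That sum is mostly TCF4, with a median of 206 CPM over the 46 libraries, where the next highest marker, FCER1A, had 6.43 CPM. The T cell gene CD3D was called lower, and no natural killer cell or eosinophil marker was called. The share of reads on no annotated gene was 32.4% and 30.4% in these libraries and 20.2 to 25.9% in the other 21 of D105. The part of these in the low TLR4 and TLR5 was not tested.

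**Figure D4:**
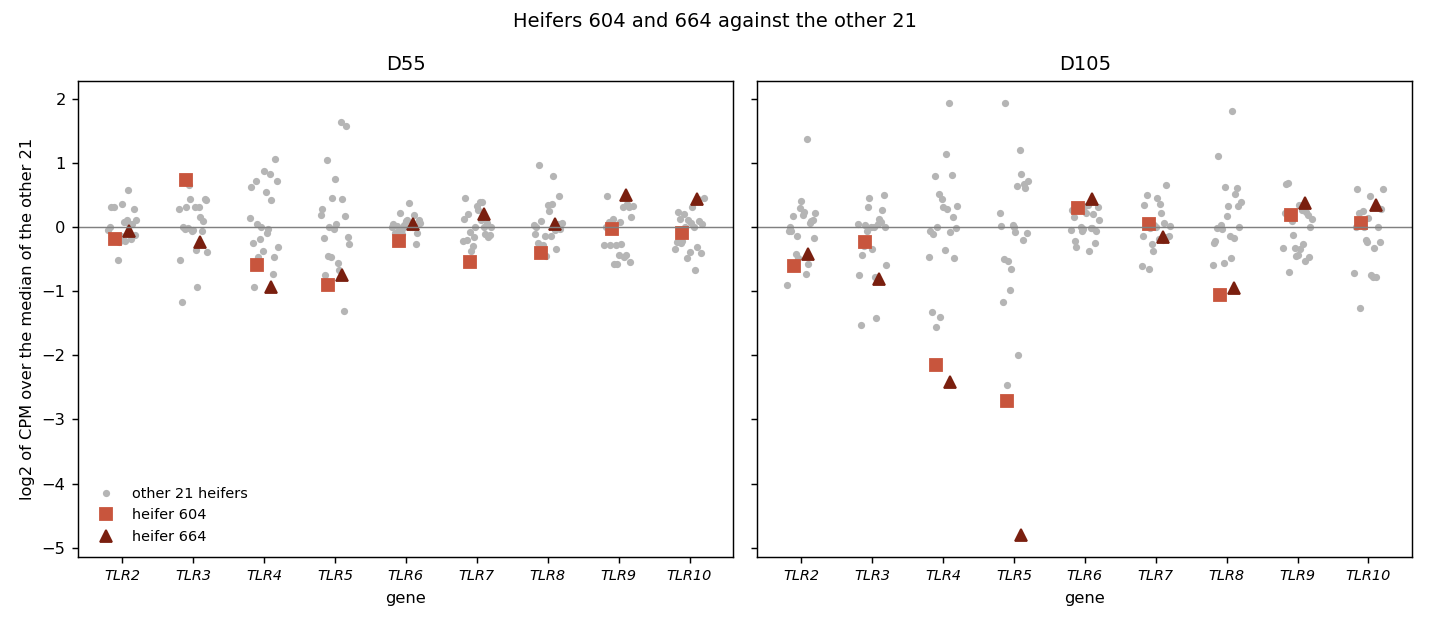
Log2 of CPM over the median of the other 21 heifers for 9 Toll-like receptors on D55 (left) and D105 (right), with the other 21 heifers as grey dots. On D105 heifers 604 (squares) and 664 (triangles) lie below all grey dots for TLR4 and TLR5, where TLR5 rests on 4 and 1 reads.

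Whether a heifer with a high level on D55 also had a high level on D105 was asked over the 23 heifers, after removing the group mean of each day from log2(CPM + 1). There were 9 relations computed, with p from 100000 permutations of heifers within treatment, two-sided and not adjusted. Over 13859 genes with a mean of at least 1 CPM the median r was 0.391, with quartiles of 0.145 and 0.600. TLR9 had r = 0.811 (p = 3e-05) and Spearman's rho = 0.845 (p = 1e-05, the smallest p that these permutations can give), and r was 0.812 without the 2 heifers farthest from the median. It held within AI (r = 0.724), IVP-Normal (0.924) and IVP-LOS (0.904). TLR3 had r = 0.813 (p = 8e-05; rho = 0.663, p = 0.00196), 0.734 without the 2 farthest heifers, and 0.813, 0.971 and 0.493 within the groups. Of all genes, 94.2% had a lower r than TLR9 and 94.4% a lower r than TLR3.

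TLR5 had r = 0.724 (p = 0.00023; rho = 0.656, p = 0.00114), and r = 0.661 without the 2 farthest heifers, but 0.0474 within IVP-Normal. TLR10 had r = 0.506 (p = 0.00871; rho = 0.543, p = 0.00527) and 0.490 without the 2 farthest, with 0.506, 0.372 and 0.733 within AI, IVP-Normal and IVP-LOS. TLR6 had r = 0.491 (p = 0.0282; rho = 0.431, p = 0.0485), 0.420 without the 2 farthest, and 0.591, 0.571 and 0.326 within the groups.

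For TLR2 and TLR8 the relation rested on few heifers. TLR2 had r = 0.571 (p = 0.00673; rho = 0.405, p = 0.0648), which was 0.280 without heifers 609 and 637, and within groups it was 0.342, -0.0410 and 0.903. TLR8 had r = 0.550 (p = 0.00746; rho = 0.369, p = 0.0904), which was 0.191 without heifers 546 and 637, and within groups it was 0.497, -0.419 and 0.822. TLR4, the receptor with the largest day change, had r = 0.390 (p = 0.0785; rho = 0.287, p = 0.209), 0.292 without the 2 farthest heifers, and -0.0560, 0.0691 and 0.660 within the groups. TLR7 had r = 0.388 (p = 0.0912; rho = 0.370, p = 0.102), 0.497 without the 2 farthest, and 0.412, 0.328 and 0.430 within the groups. Among all genes, 87.8% had a lower r than TLR5, 71.3% than TLR2, 68.7% than TLR8 and 63.4% than TLR10. For TLR6, TLR4 and TLR7 these shares were 61.5%, 49.9% and 49.7%. In AI and IVP-LOS the library set changed between the days of every heifer, and only the IVP-Normal values are within 1 set.

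**Figure D5:**
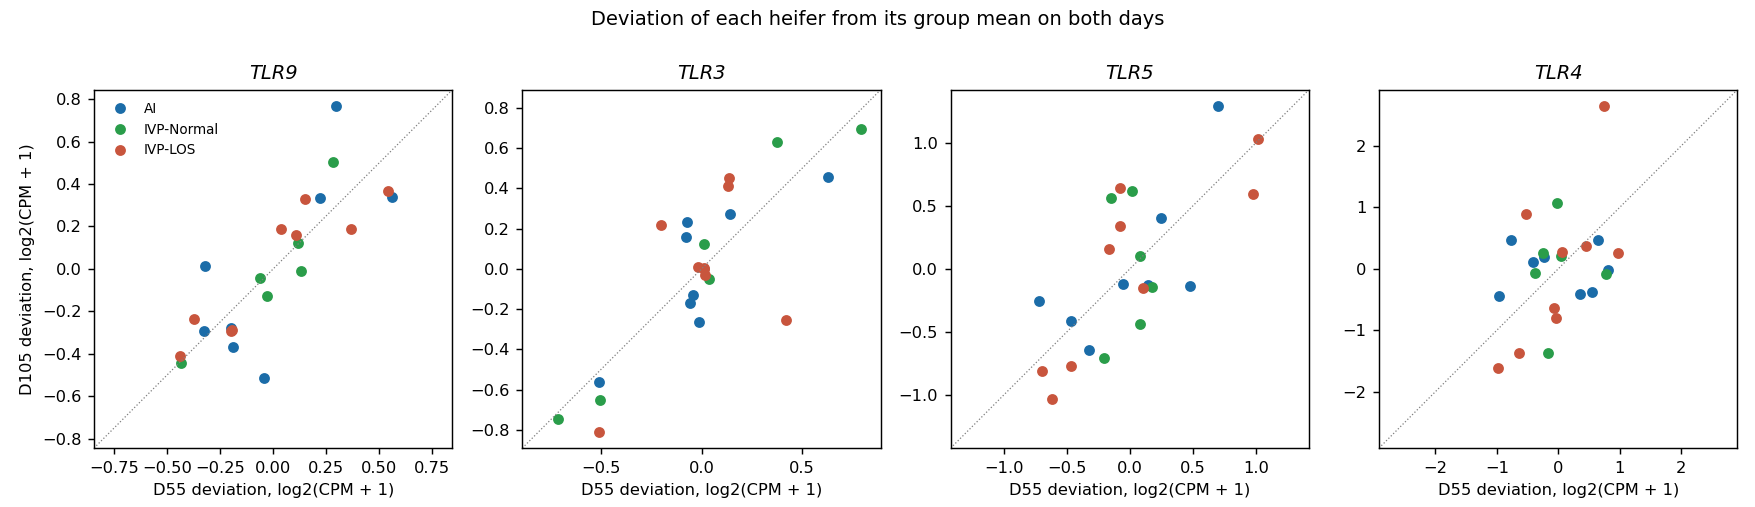
Deviation of each heifer from its group mean in log2(CPM + 1), D55 on the horizontal and D105 on the vertical axis, for TLR9, TLR3, TLR5 and TLR4, with the line of equal values dotted. TLR9 and TLR3 points follow the line (r = 0.811 and 0.813) more closely than TLR4 points (r = 0.390).

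Receptors differed in which genes followed them across libraries. Over the 46 libraries, after removing group and day means, the Pearson r of log2(CPM + 1) between pairs of the 9 receptors had a median of 0.00566 over 36 pairs, from -0.594 for TLR5 with TLR9 to 0.839 for TLR2 with TLR8. The libraries share cell mixture and depth, the 2 libraries of a heifer are not independent, and these r are given without p. Among 13859 genes, those closest to TLR4 were CCR1, a chemokine receptor (r = 0.925), and ALPK1, a kinase that senses a bacterial sugar (0.924). TLR2 was closest to IFNGR2, a chain of the interferon-gamma receptor (0.919), and FBXL5 (0.871), and TLR8 to ATP6V1A, a subunit of the proton pump of endosomes (0.928), and TYK2, a Janus kinase (0.912). TLR5 was closest to NLRC4, the inflammasome protein that acts in flagellin sensing inside the cell (0.901), and IQSEC2 (0.893).

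The other receptors had other neighbours. TLR9 was closest to PRAG1 (0.850) and ADRA2A (0.842), and TLR10 to BHLHE41 (0.821) and HVCN1, a proton channel of B cells (0.810). TLR3 was closest to SYNE2 (0.796), TLR7 to WDSUB1 (0.757) and SLC16A1, a lactate transporter (0.714), and TLR6 to HOMEZ (0.637) and GSDMB (0.604). TLR6 had the weakest of the 9 closest matches.

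Genes that work with the receptors were followed in 6 lists by role. Their counts stand beside 9.95% of all genes called between days in AI, 2.45% in IVP-Normal and 0.251% in IVP-LOS. Of 9 coreceptors and accessory proteins, 7 were tested between days in AI, and 2 were called higher. LY96, which binds lipopolysaccharide with TLR4, ran from 13.6 to 25.1 CPM on D55 and from 23.6 to 50.1 CPM on D105, a log2 fold change of 0.77 ± 0.16 (adjusted p = 0.0043), and the ranges overlapped only between 23.6 and 25.1 CPM. CD14, which hands lipopolysaccharide to TLR4, had medians of 49.2 and 100 CPM and a log2 fold change of 1.01 ± 0.31 (adjusted p = 0.0454). In IVP-Normal LY96 was called higher (0.63 ± 0.15, adjusted p = 0.0354), and in IVP-LOS no coreceptor was called. Both partners of TLR4 thus rose with it in AI, and LY96 did so in IVP-Normal.

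Of 4 adaptors, 2 were called higher and 1 lower between days in AI. MYD88, the adaptor shared by nearly all Toll-like receptors, rose by a log2 fold change of 0.75 ± 0.15 (adjusted p = 0.0025), with D55 values of 172 to 220 CPM and D105 values of 192 to 460 CPM. TIRAP, which brings MYD88 to TLR2 and TLR4, rose by 0.37 ± 0.10 (adjusted p = 0.0236). TICAM1, the adaptor of TLR3 and TLR4, fell by 0.52 ± 0.10 (adjusted p = 0.0022), from a median of 15.0 to 10.3 CPM. Among 12 kinases and ligases 3 were called higher in AI, the ubiquitin ligases PELI1 (0.61) and TRAF6 (0.24) and the TAK1 binding protein TAB2 (0.39). No adaptor, kinase or ligase was called in IVP-Normal or IVP-LOS, and no interferon regulatory factor (of 3) or inhibitor (of 6) was called in any group between days without the heifer block.

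Of 8 genes that Toll-like receptor signals induce, 7 were tested and 4 were called higher in AI. IL1B, an inflammatory cytokine, ran from 3.998 to 35.1 CPM on D55 and from 32.6 to 443 CPM on D105 (log2 fold change 3.64 ± 0.57, adjusted p = 0.000472). CXCL8, the neutrophil chemokine interleukin-8, rose by 2.27, IL12B, a subunit of interleukin-12, by 1.91 and PTGS2, the inducible cyclooxygenase, by 1.92. In IVP-Normal IL1B (3.41 ± 0.55, adjusted p = 0.0065) and IL12B (2.43 ± 0.59, adjusted p = 0.0483) were called higher, and in IVP-LOS none was. With heifer as a block IL1B was also called in IVP-LOS (2.20 ± 0.42, adjusted p = 0.0326), CXCL8 and NFKBIA were added in IVP-Normal, and PTGS2 in AI was not called (1.60 ± 0.52, adjusted p = 0.0583). The block also added the coreceptor CD180 (lower) and IRF7 (higher) in AI, and MYD88 and IRF7 (both higher) in IVP-Normal. The median log2 fold change of the 7 targets was 1.91 in AI, 1.495 in IVP-Normal and 0.65 in IVP-LOS, where the median over all genes was between -0.03 and 0.01.

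In heifers 604 and 664 on D105 genes of the same lists were called in both directions, in a comparison where 21.1% of all genes were called. Of 8 tested coreceptors and accessory proteins 5 were called. CD14 (log2 fold change -3.02 ± 0.76, adjusted p = 0.0096) and LY96 (-1.16 ± 0.36, adjusted p = 0.0276), the partners of TLR4, were lower, and so was HSP90B1 (-0.61), a chaperone of Toll-like receptors. LY86 (1.06 ± 0.27, adjusted p = 0.0094), the partner of CD180, and UNC93B1 (0.49 ± 0.12, adjusted p = 0.0068), which carries nucleic acid receptors to endosomes, were higher. Both TIRAP (-0.93) and TICAM2 (-0.52) were lower among the 4 adaptors. Of the 12 kinases and ligases 4 were lower, TAB2 (-0.72), TAB1 (-0.70), PELI1 (-0.61) and TRAF6 (-0.29), and TRAF3 was higher (0.44). IRF7 (-0.74), 1 of the 3 interferon regulatory factors, was lower, and of the 6 inhibitors CYLD (-0.55) was lower and SIGIRR higher (0.64). Of the 7 tested induced targets IL1B (-3.31 ± 1.07, adjusted p = 0.0317) and IL12B (-3.15 ± 1.11, adjusted p = 0.0454) were lower.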

How the data were processed

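The authors trimmed reads, aligned them with HISAT2 2.1.0 to the bovine genome ARS-UCD1.2, counted them with HTSeq-count in union mode on NCBI RefSeq genes, and deposited raw read counts per gene. A second table on Ensembl genes does not pair its identifiers with symbols and was not used here. Groups and heifer numbers came from the labels. The 5 summary lines of the table stayed out of library sizes. Counts were analysed in R 4.3.3 with edgeR 4.0.16: TMM scaling, filterByExpr (minimum count 10) and the quasi-likelihood F-test on the compared groups, with Benjamini-Hochberg adjustment over all genes tested and calls at an adjusted p of at most 0.05. All 9 measured receptors passed the filter in every comparison. The SE is the absolute log2 fold change over the square root of F. Alternatives were edgeR's and DESeq2 1.42.0's likelihood ratio tests, upper-quartile scaling, no filter, heifer as a replicate block, and leaving out heifers.

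Same-numbered libraries come from the same heifer and deviated together (mean r = 0.544 over 13859 genes, range 0.288 to 0.841, against -0.0239 between heifers). The fit over all 23 heifers was chosen after seeing the data. The receptors and the lists of pathway genes and markers were chosen with earlier results of these data known, so no p was adjusted over a list alone. Named pathway genes were those called, at most 4 per list and comparison by size of change (UNC93B1 and TRAF6 in the pair 604 and 664 were added after their values were seen). For each receptor the 2 genes with the highest r were named, except 1 gene that is not reported here. The fits were also run on simulated counts drawn without a heifer effect. That run cannot show how they handle the 2 correlated libraries of a heifer. Intervals and depth cover counting error only. In fits without a block, p-values measure the spread between libraries of a group. The day comparisons without a block thus treat the 2 libraries of a heifer as independent. With heifer as a block, p-values measure the spread of the day change between heifers. Those of the relations of D55 to D105 levels come from permuting heifers.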

Additional observations from a re-analysis of the deposited data

Results flagged for a closer look

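Of 54 groups of 1 receptor, treatment and day that were examined, 7 held a sample far from the others by Dixon's criterion at the 95% level, which chance meets in about 1 of 20 groups. In IVP-LOS on D105 heifer 637 was the highest for TLR4 (355 CPM, next heifer 104 CPM), TLR8 (204 CPM, next 89.0 CPM) and TLR2 (178 CPM, next 77.6 CPM). The same library had the highest summed neutrophil markers of all 46, at 12538 CPM. In AI heifer 546 was the highest for TLR5 on D105 (5.70 CPM, next 2.63 CPM), TLR7 on D105 (111 CPM, next 82.2 CPM) and TLR8 on D55 (116 CPM, next 76.2 CPM). In IVP-Normal on D55 heifer 669 was the highest for TLR4 (64.4 CPM, next 38.3 CPM), and its D105 value was 91.5 CPM.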

How the results depend on the processing

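TLR4 kept its direction and its call between days in AI under every alternative run there, with adjusted p up to 0.0077, and TLR4, TLR6, TLR9 and TLR10 kept theirs in the fit over all 23 heifers. The number of receptors called between days in AI was 2 by DESeq2 (TLR10 was added) and 4 with heifer as a replicate block, instead of 1. It was 2 in IVP-Normal and 1 in IVP-LOS with the replicate block, instead of 1 and 0. Leaving out 1 heifer gave 1 receptor in AI, 0 to 1 in IVP-Normal, 0 in IVP-LOS and 0 in the comparison of heifers 604 and 664 on D105, instead of 2. The block ended no call of a receptor, and among the pathway genes it ended that of PTGS2 in AI. Over all 23 heifers TLR2 was called lower without heifer 637 (adjusted p = 0.0323) and TLR5 by the likelihood ratio test of edgeR (adjusted p = 0.0470). The relation of D55 to D105 levels was past p = 0.05 for 7 receptors, and for 8 without heifers 604 and 664, where TLR7 was added (permutation p = 0.0257). The share of all genes past that p is not given here, so these counts are not shown to be particular to the receptors. Receptors without a call and with small differences changed sign. With the block TLR5 in AI was -0.028 and TLR8 in IVP-LOS -0.28. TLR8 in IVP-LOS was -0.060 with upper-quartile scaling and -0.31 without heifer 637. TLR3 in IVP-LOS was 0.0022 by DESeq2, 0.0094 without heifer 637 and 0.12 without heifers 604 and 664. Over all 23 heifers, TLR3 was 0.034 and TLR8 0.026 without heifers 604 and 664, and TLR8 was 0.059 without the block. Leaving out 1 heifer moved TLR2 in AI between -0.083 and 0.045, TLR5 in AI between -0.19 and 0.23, TLR5 in IVP-Normal between -0.28 and 0.15, TLR8 in IVP-Normal between -0.17 and 0.084, TLR3 in IVP-LOS between -0.050 and 0.090 and TLR8 in IVP-LOS between -0.076 and 0.092. The cause of these changes was not tested.

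Counts over all genes also moved. Against 1517 in AI there were 2603 with the block, and the split of 1100 higher and 417 lower was 983 and 692 with upper-quartile scaling. Against 374 in IVP-Normal there were 613 by edgeR's likelihood ratio test, 748 by DESeq2, 838 with the block and 101 to 540 without 1 heifer. Against 38 in IVP-LOS these were 227, 336, 162 and 10 to 108, with 12 without heifers 604 and 664 and 24 without heifer 637, and its split of 30 higher and 8 lower was 27 and 13 with upper-quartile scaling. On D55 the pair 604 and 664 had 5 by the likelihood ratio test, 8 by DESeq2, 6 without a filter, 9 without heifer 604 and 0 without heifer 664, instead of 3, and on D105 it had 567 to 725 with 1 heifer of the pair left out instead of 3550. The fit over all 23 heifers had 3408 without the block instead of 5229. The alternative on Ensembl genes was not run, since its identifiers could not be matched to the receptors. Depth limits TLR5 most, which had 1 to 127 reads per library.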
